A study of Mus musculus with 8 samples.

Results

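The 9 genes described here code for proteins of DNA replication and cell division. Mcm2, Mcm3, Mcm5, Mcm6 and Tk1 act in replication, Cdk1, Plk1 and Ccnb2 act in mitosis, and Mki67 codes for the proliferation antigen Ki-67. They were taken by symbol, which gave 18 probe sets of the 45101 on the array and 9 genes of the 18194 with a symbol of their own. Total RNA of whole testes, taken from male mice on postnatal day 28, was measured on 8 arrays, 1 per sample, and every mouse carried Dmrt1 flox/flox on a mixed background of C57BL6/6J and 129. Dmrt1 is a transcription factor of Sertoli cells and spermatogonia. The groups were Dmrt1 flox/flox with SF1-cre (4 samples, Sf1-Cre below), Dmrt1 flox/flox with Dhh-cre (2 samples, Dhh-Cre below) and Dmrt1 flox/flox with no Cre (2 samples, control below). The submitters describe both promoters as specific to Sertoli cells, the somatic cells that nurse the germ line, so other testis cells also contributed RNA without being the intended site of the deletion. In RNA of a whole organ, fewer cells of a type and less RNA per cell cannot be told apart. The comparisons ask how the loss of Dmrt1 by either driver relates to the levels of these genes.

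Mcm2, Mcm3, Mcm5 and Mcm6 are subunits of the MCM ring, the helicase that is loaded on origins before S phase and unwinds DNA at the fork. Tk1 makes thymidine monophosphate for DNA synthesis and is made mainly in S phase. Cdk1 is the kinase that drives entry into mitosis and Ccnb2 is one of its B-type cyclin partners, while Plk1 is a kinase of centrosome maturation, spindle assembly and chromosome separation. The mitotic genes are also used in the meiotic divisions of spermatocytes, so in a testis their RNA can come from dividing somatic cells, from spermatogonia and from spermatocytes.

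Levels are log2 of the deposited array intensity, and a log2 level of 4 served as the floor for testing. Errors on group means are standard deviations (SD) over the samples of the group. Differences are log2 fold changes with limma's standard error (SE), and a gene passed if its Benjamini-Hochberg adjusted p, taken over the 13802 genes tested, was under 0.05. All 9 genes passed the filter on low values. The median intensity of an array was 15.2 to 15.9 in Sf1-Cre, 15.3 and 15.5 in the arrays labelled Dhh-Cre, against 14.1 and 13.7 in control. Dmrt1 itself lay at log2 7.10, 7.89, 7.63 and 7.53 in Sf1-Cre, at 10.43 and 9.94 in the arrays labelled Dhh-Cre, against 8.50 and 8.76 in control. It was lower in Sf1-Cre (−1.09 ± 0.25, adjusted p = 0.00375) and higher in the arrays labelled Dhh-Cre (1.55 ± 0.28, adjusted p = 0.0012), a direction opposite to a loss. Whole-testis RNA also holds that of spermatogonia, so this level does not test a deletion in Sertoli cells. Whether the probe set lies in the deleted part was not tested either. The arrays labelled Dhh-Cre correlated by 0.954 to 0.978 with Sf1-Cre arrays and by 0.804 to 0.838 with control arrays. They are called Dhh-Cre here by their label, which the Dmrt1 level does not settle. Spink8, a gene of the epididymis, was above log2 10 in Sf1-Cre replicates 1 and 3 and in the array labelled Dhh-Cre replicate 1. The ratio of the 3′ to the 5′ Actb control probe sets was 9.45 to 13.5 in Sf1-Cre, 13.6 and 9.51 in the arrays labelled Dhh-Cre, against 4.89 and 4.44 in control. The same ratio for Gapdh did not follow it, at 1.67 to 2.34 in Sf1-Cre, 3.3 and 1.9 in the arrays labelled Dhh-Cre, against 3.58 and 2.96 in control. The part of these ratios in the results was not tested.

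The way the arrays were centred decided the direction of several changes against control. With each array centred on the median of a list of 13 measured housekeeping genes, the median log2 fold change of all genes moved by −1.37 for Sf1-Cre over control and by −1.33 for Dhh-Cre over control, and by −0.04 for Sf1-Cre over Dhh-Cre. As deposited, the housekeeping list itself had a median log2 fold change of 0.78 in Sf1-Cre and 0.76 in the arrays labelled Dhh-Cre, both over control. By group means, the middle gene of the list was Tfrc in control (log2 11.18), Ywhaz in Sf1-Cre (12.6) and B2m in Dhh-Cre (12.51). With different genes in the middle, the shift was larger than the list's median change. Mcm2 in Sf1-Cre (1.36), and Mcm5 (1.33), Mcm6 (1.17) and Cdk1 (1.00) in Dhh-Cre, rose by more than that median change, yet turned below 0. The other genes that turned in Sf1-Cre had risen by less than it. Of the genes that passed, 58.4% were higher in Sf1-Cre than in control as deposited and 23.2% with housekeeping centring, and 61.7% and 26.8% were higher in the arrays labelled Dhh-Cre. The value with housekeeping centring is therefore given beside the changes of genes and lists against control.

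Of the promoters of the 9 genes, 6 are printed, chosen by how the genes moved in Sf1-Cre: Plk1 and Ccnb2, which fell, Tk1 and Mcm2, with the largest rises as deposited, and Cdk1 and Mcm6, with the smallest differences. Short sequences known from cell cycle promoters are marked in them. The windows run from 250 bases before to 50 bases after the start of the gene, 5′ to 3′ on the gene's strand, as RefSeq gives them for GRCm38.p6, and all 9 genes had one. Capitals mark, on either strand, the CCAAT box (CCAAT), the cell cycle homology region CHR (TTTGAA), known from promoters of G2 and mitosis genes, and E2F-like sites (TTTNGCGC or TTTCCCGC), known from promoters of S phase genes. The different motifs overlapped nowhere in these windows.
Plk1, chr7:122159185-122159484, + strand
Plk1: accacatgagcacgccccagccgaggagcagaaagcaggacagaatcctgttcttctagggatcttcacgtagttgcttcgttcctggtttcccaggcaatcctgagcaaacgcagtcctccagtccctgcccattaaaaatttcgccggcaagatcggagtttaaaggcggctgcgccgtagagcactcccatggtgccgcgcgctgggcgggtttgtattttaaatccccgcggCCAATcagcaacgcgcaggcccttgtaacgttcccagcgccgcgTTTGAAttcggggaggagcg
Ccnb2, chr9:70421505-70421804, − strand
Ccnb2: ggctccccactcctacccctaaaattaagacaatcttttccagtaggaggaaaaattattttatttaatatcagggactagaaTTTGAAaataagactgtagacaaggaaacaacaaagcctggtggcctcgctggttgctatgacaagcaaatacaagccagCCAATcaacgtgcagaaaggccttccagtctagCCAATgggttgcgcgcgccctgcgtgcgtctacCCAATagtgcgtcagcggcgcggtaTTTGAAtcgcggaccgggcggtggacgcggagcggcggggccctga
Cdk1, chr10:69352863-69353162, − strand
Cdk1: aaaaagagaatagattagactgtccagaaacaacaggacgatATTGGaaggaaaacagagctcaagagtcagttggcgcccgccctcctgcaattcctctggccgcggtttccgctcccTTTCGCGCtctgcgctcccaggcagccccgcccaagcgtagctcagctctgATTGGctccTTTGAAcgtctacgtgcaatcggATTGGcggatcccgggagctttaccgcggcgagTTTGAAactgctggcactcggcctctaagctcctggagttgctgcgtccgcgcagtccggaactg
Tk1, chr11:117825965-117826264, − strand
Tk1: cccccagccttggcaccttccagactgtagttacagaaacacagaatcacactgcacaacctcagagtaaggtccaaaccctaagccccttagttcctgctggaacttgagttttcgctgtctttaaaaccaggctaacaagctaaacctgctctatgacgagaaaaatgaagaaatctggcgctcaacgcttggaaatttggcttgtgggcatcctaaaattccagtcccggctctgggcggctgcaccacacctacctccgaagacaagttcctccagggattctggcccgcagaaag
Mcm2, chr6:88898731-88899030, − strand
Mcm2: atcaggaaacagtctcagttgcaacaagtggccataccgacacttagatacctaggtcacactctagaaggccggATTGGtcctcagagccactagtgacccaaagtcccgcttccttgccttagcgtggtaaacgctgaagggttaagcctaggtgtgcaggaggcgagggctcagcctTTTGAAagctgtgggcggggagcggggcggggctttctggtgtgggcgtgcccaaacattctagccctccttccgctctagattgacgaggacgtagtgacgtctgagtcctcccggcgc
Mcm6, chr1:128359656-128359955, − strand
Mcm6: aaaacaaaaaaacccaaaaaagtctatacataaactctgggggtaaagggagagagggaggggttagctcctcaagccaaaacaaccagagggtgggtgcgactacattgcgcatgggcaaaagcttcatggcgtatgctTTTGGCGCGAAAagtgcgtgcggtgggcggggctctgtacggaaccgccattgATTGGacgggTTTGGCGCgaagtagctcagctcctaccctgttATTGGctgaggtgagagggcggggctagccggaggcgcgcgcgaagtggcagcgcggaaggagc

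The Plk1 window held 1 CCAAT box and 1 CHR, the Ccnb2 window 3 CCAAT boxes and 2 CHR, and the Cdk1 window 3 CCAAT boxes, 2 CHR and 1 E2F-like site. The Tk1 window held no match, the Mcm2 window 1 CCAAT box and 1 CHR but no E2F-like site, and the Mcm6 window 2 CCAAT boxes and 3 E2F-like matches. Those at −110 and −106 lie on opposite strands and overlap, so the Mcm6 window shows only 2 marked E2F-like stretches. Among the genes not printed, Mki67 had 3 CCAAT boxes and 2 CHR, and Mcm3 and Mcm5 each had 3 CCAAT boxes and 2 E2F-like matches. In Mcm5 these overlap, at −153 and −149. A CHR thus lay in all 3 mitotic genes and, of the replication genes, in Mcm2 alone. E2F-like matches lay in Mcm3, Mcm5 and Mcm6 and, of the mitotic genes, in Cdk1 alone. The letters were skewed between replication and mitotic genes but did not divide them without exception. Tk1 and Mcm2, the replication genes with the largest rises in Sf1-Cre, had no match to the 2 E2F-like forms searched. Over 32851 RefSeq promoter windows of the same length, 37.4% held a CCAAT box, 17.9% a CHR, 2.39% an E2F-like site and 6.95% both a CHR and a CCAAT box. Among other cell cycle genes with a window, a CHR was held by 23 of 28 kinetochore, condensin and cytokinesis genes, by 5 of 14 mitotic kinases, cyclins and checkpoint genes, by 6 of 16 G1 to S regulators and by 6 of 34 origin licensing and replication fork genes. An E2F-like site was held by 13 of 34 origin licensing and replication fork genes, by 7 of 16 G1 to S regulators, by 5 of 28 kinetochore, condensin and cytokinesis genes and by 0 of 14 nucleotide synthesis genes. A match describes letters in a window and not a site in use.

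In Sf1-Cre testes, 4 of the 9 genes rose and 2 fell against control, while with housekeeping centring 1 rose and 6 fell. The 4 that rose were Tk1, Mcm2, Mki67 and Mcm5, and the 2 that fell were Plk1 and Ccnb2. The background was high: 79.8% of all genes tested passed, 46.6% higher and 33.2% lower. The 6 of 9 that passed are thus a share below that of all genes. The median log2 fold change of the 9 genes was 0.58, against 0.34 over all genes tested. The groups did not overlap for 7 of the 9 genes, 5 higher and 2 lower, beside 85.9% of all genes, 50% higher and 36% lower.

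In the arrays labelled Dhh-Cre, all 9 genes passed against control, 7 higher and 2 lower, while with housekeeping centring 3 passed, Tk1 higher and Plk1 and Ccnb2 lower. Here 79.6% of all genes tested passed, 49.1% higher and 30.5% lower. The groups overlapped for none of the 9 genes, beside 91.1% of all genes without overlap, 56% higher and 35.1% lower. The median log2 fold change of the 9 genes was 1.33, against 0.54 over all genes. This comparison and that of Sf1-Cre share the 2 control samples.

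**Figure D1:**
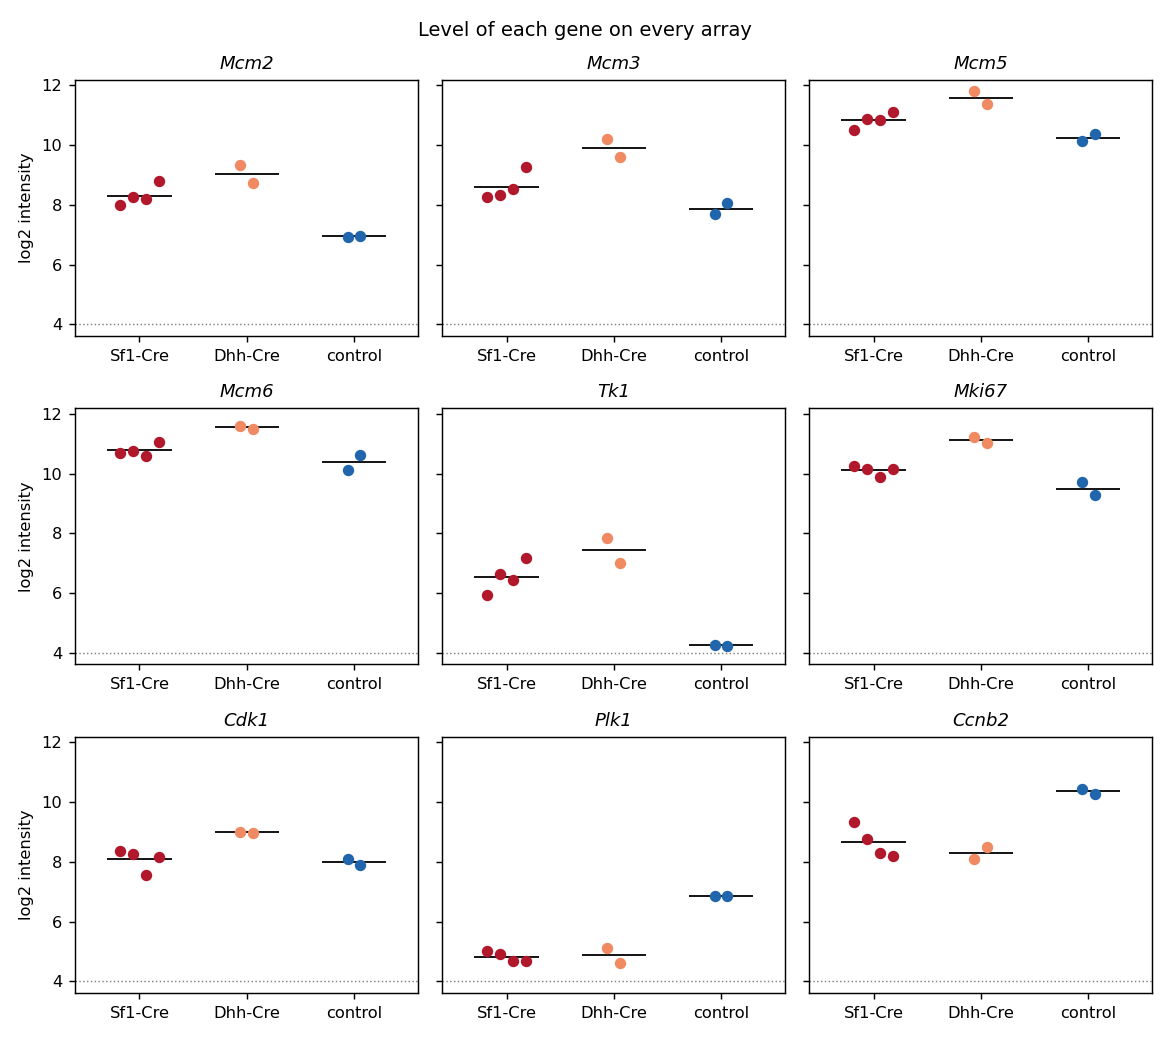
Log2 intensity of each of the 9 genes on every array, with Sf1-Cre (4 points), the arrays labelled Dhh-Cre (2 points) and control (2 points) in each panel. The black line is the group mean and the dotted line the floor at log2 4, and Plk1 and Ccnb2 lie below control in both Cre groups while Tk1 and Mcm2 lie above it, with Mcm2 in Sf1-Cre turning to −0.01 under housekeeping centring.

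Tk1, thymidine kinase 1, showed the largest rise of the 9 genes against control in both Cre groups. Its level was log2 5.94, 6.65, 6.44 and 7.17 in Sf1-Cre, 7.84 and 7.02 in the arrays labelled Dhh-Cre, against 4.25 and 4.24 in control. Both control arrays lay just above the floor, and neither Cre group overlapped with them. Tk1 was 4.94-fold higher in Sf1-Cre than in control (2.31 ± 0.35, adjusted p = 0.000443), and with housekeeping centring the difference was 0.93 and still passed (adjusted p = 0.0313). It was 9.09-fold higher in the arrays labelled Dhh-Cre than in control (3.18 ± 0.40, adjusted p = 0.00016), with 1.85 under housekeeping centring. The Sf1-Cre difference exceeded that of 85.8% of all genes tested.

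Mcm2 showed the largest rise of the 4 MCM subunits in Sf1-Cre. It lay at log2 7.98, 8.28, 8.19 and 8.80 in Sf1-Cre, at 9.33 and 8.73 in the arrays labelled Dhh-Cre, against 6.94 and 6.97 in control. All Cre arrays lay above both control arrays. Mcm2 was 2.57-fold higher in Sf1-Cre than in control as deposited (1.36 ± 0.26, adjusted p = 0.00153), but −0.01 with housekeeping centring (adjusted p = 0.972). It was 4.22-fold higher in the arrays labelled Dhh-Cre than in control (2.08 ± 0.30, adjusted p = 0.000319), and 0.75 with housekeeping centring, at the threshold (adjusted p = 0.05).

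Mcm3, Mcm5 and Mcm6, further subunits of the same ring, were closer to control in Sf1-Cre. Mcm5 lay at log2 10.51, 10.89, 10.83 and 11.12 in Sf1-Cre, at 11.80 and 11.37 in the arrays labelled Dhh-Cre, against 10.14 and 10.37 in control, with no overlap with control. Its rise in Sf1-Cre was 1.50-fold as deposited (0.58 ± 0.21, adjusted p = 0.0314), and with housekeeping centring it fell by 0.79 (adjusted p = 0.00907). The Mcm5 call was also lost when any 1 of 5 arrays was left out, namely either control array or Sf1-Cre replicate 2, 3 or 4. Over all alternatives its adjusted p ran from 0.00907 to 0.174.

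Mcm3 lay at log2 8.27, 8.33, 8.52 and 9.28 in Sf1-Cre, at 10.19 and 9.61 in the arrays labelled Dhh-Cre, against 7.69 and 8.06 in control. The highest Sf1-Cre array was replicate 4, and Sf1-Cre did not overlap with control, but the difference did not pass (0.73 ± 0.31, 95% interval 0 to 1.46, adjusted p = 0.0624) and was −0.64 with housekeeping centring. Mcm6 lay at log2 10.70, 10.76, 10.58 and 11.06 in Sf1-Cre, at 11.61 and 11.48 in the arrays labelled Dhh-Cre, against 10.13 and 10.63 in control. Sf1-Cre replicate 3 lay below the higher control array, and the Mcm6 difference did not pass (0.40 ± 0.20, 95% interval −0.06 to 0.85, adjusted p = 0.0929), although with housekeeping centring Mcm6 was lower and passed (−0.97, adjusted p = 0.0038).

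In the arrays labelled Dhh-Cre the same 3 subunits rose against control as deposited. Mcm3 was 4.09-fold higher (2.03 ± 0.36, adjusted p = 0.00109), and 0.70 with housekeeping centring, which did not pass (adjusted p = 0.126). Mcm5 was 2.51-fold higher (1.33 ± 0.24, adjusted p = 0.00117) and Mcm6 2.25-fold higher (1.17 ± 0.23, adjusted p = 0.00167), but with housekeeping centring Mcm5 was at −0.00014 and Mcm6 at −0.16, and neither passed.

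Mki67 codes for Ki-67, which coats mitotic chromosomes and marks cells in any active phase of the cycle. It lay at log2 10.26, 10.14, 9.88 and 10.14 in Sf1-Cre, at 11.23 and 11.04 in the arrays labelled Dhh-Cre, against 9.71 and 9.27 in control. The 3 groups did not overlap, with the arrays labelled Dhh-Cre highest. Mki67 was 1.53-fold higher in Sf1-Cre than in control as deposited (0.61 ± 0.18, adjusted p = 0.0133), while with housekeeping centring it was lower (−0.76, adjusted p = 0.00437). Without control replicate 2 the Sf1-Cre difference was 0.39 and did not pass (adjusted p = 0.129). It was 3.13-fold higher in the arrays labelled Dhh-Cre than in control (1.65 ± 0.21, adjusted p = 0.000157), and 0.32 with housekeeping centring, which did not pass (adjusted p = 0.198).

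**Figure D2:**
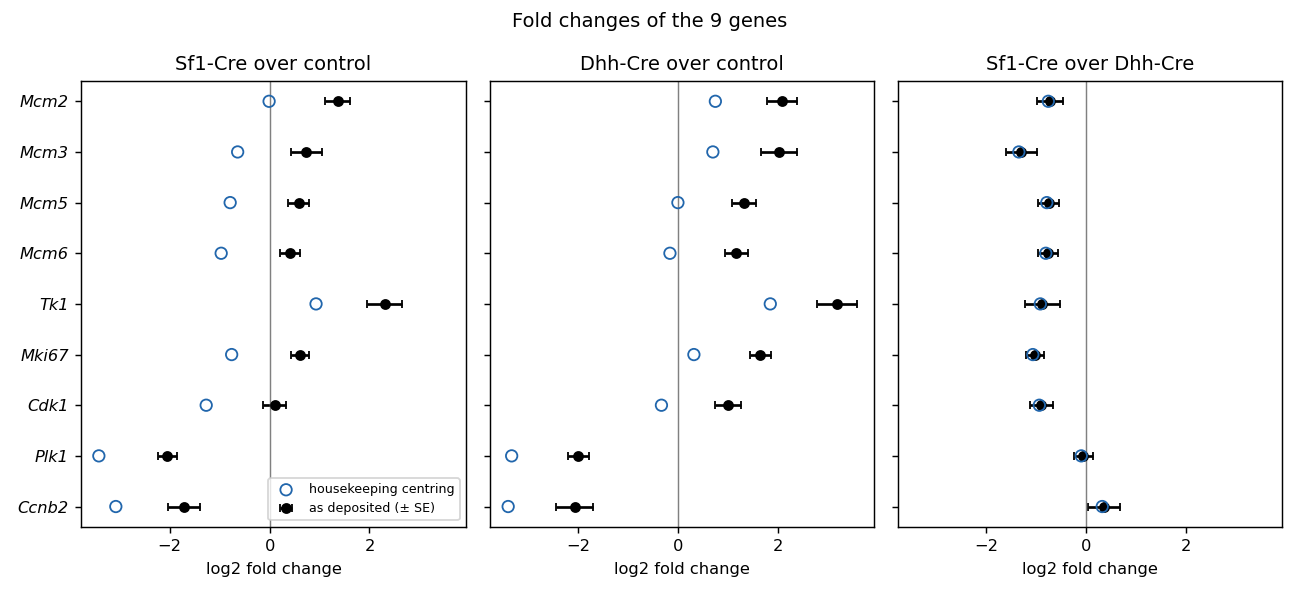
Log2 fold change of each of the 9 genes for Sf1-Cre over control, Dhh-Cre (as labelled) over control and Sf1-Cre over Dhh-Cre. Black points are the values as deposited with ± SE and open circles the values with housekeeping centring, which moves Mcm2, Mcm3, Mcm5, Mcm6, Mki67 and Cdk1 below 0 for Sf1-Cre over control and Mcm5, Mcm6 and Cdk1 below 0 for Dhh-Cre over control, while Tk1 stays above 0 and Plk1 and Ccnb2 below 0.

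Plk1 and Ccnb2 fell in both Cre groups, and the third mitotic gene, Cdk1, did not follow them. Plk1 lay at log2 5.0, 4.90, 4.68 and 4.67 in Sf1-Cre, at 5.13 and 4.61 in the arrays labelled Dhh-Cre, against 6.85 and 6.87 in control. Every Cre array lay far below both control arrays and close to the floor. Plk1 was 4.15-fold lower in Sf1-Cre than in control (−2.05 ± 0.19, adjusted p = 2.56e-05) and 3.99-fold lower in the arrays labelled Dhh-Cre than in control (−2.0 ± 0.21, adjusted p = 6.76e-05), with −3.42 and −3.33 under housekeeping centring. Both calls held under all 19 alternatives run.

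Ccnb2, cyclin B2, lay at log2 9.34, 8.77, 8.29 and 8.21 in Sf1-Cre, at 8.08 and 8.50 in the arrays labelled Dhh-Cre, against 10.45 and 10.28 in control. Both Cre groups lay below control without overlap, and the spread was widest in Sf1-Cre. Ccnb2 was 3.28-fold lower in Sf1-Cre than in control (−1.71 ± 0.32, adjusted p = 0.00143) and 4.20-fold lower in the arrays labelled Dhh-Cre than in control (−2.07 ± 0.37, adjusted p = 0.00108), with −3.08 and −3.40 under housekeeping centring. Both calls also held under all 19 alternatives.

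Cdk1, the kinase that Ccnb2 activates, lay at log2 8.36, 8.25, 7.57 and 8.17 in Sf1-Cre, at 9.0 and 8.98 in the arrays labelled Dhh-Cre, against 8.08 and 7.89 in control. Sf1-Cre overlapped with control, its replicate 3 lying below both control arrays. The difference did not pass in Sf1-Cre (0.10 ± 0.23, 95% interval −0.42 to 0.63, adjusted p = 0.691), although with housekeeping centring Cdk1 was lower and passed (−1.27, adjusted p = 0.00106). Cdk1 was 2.01-fold higher in the arrays labelled Dhh-Cre than in control as deposited (1.00 ± 0.26, adjusted p = 0.00771), and −0.33 with housekeeping centring (adjusted p = 0.303). Its promoter window above holds the CHR and CCAAT letters of Plk1 and Ccnb2 and, unlike theirs, an E2F-like site. The windows of Mcm2 and Mki67, which rose in Sf1-Cre as deposited, also hold CHR and CCAAT letters and no E2F-like site. The part of these letters in the levels was not tested.

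The contrast between replication and mitosis can be read within each array, where no centring can change it. For each array the mean log2 level of Mcm2, Mcm3, Mcm5, Mcm6 and Tk1 minus that of Cdk1, Plk1 and Ccnb2 was taken. It was 1.11, 1.68, 2.06 and 2.47 in Sf1-Cre, 2.75 and 2.28 in the arrays labelled Dhh-Cre, against −0.63 and −0.30 in control. All Cre arrays lay above 0 and both control arrays below it, and the 2 Cre groups overlapped. Because probe sets of different genes differ in brightness, the sign on 1 array carries no meaning, and only the differences between arrays do. The mean was 1.83 ± 0.58 in Sf1-Cre (SD, n = 4), 2.52 ± 0.33 in the arrays labelled Dhh-Cre (SD, n = 2) and −0.46 ± 0.24 in control (SD, n = 2).

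The contrast was thus 2.30 higher in Sf1-Cre and 2.98 higher in the arrays labelled Dhh-Cre than in control, both far more than the spread within a group, and no test was run on it since the genes were chosen. Both parts contributed: as deposited, the replication mean differed from control by 1.08 in Sf1-Cre and by 1.96 in Dhh-Cre as labelled, and the mitotic mean by −1.22 in Sf1-Cre and by −1.02 in Dhh-Cre, while the centring shift of −1.37 and −1.33 would take the replication mean of Sf1-Cre below control. With Cdk1 left out of the mitotic mean, a choice made after seeing the data, the contrast was 2.96 in Sf1-Cre and 3.99 in the arrays labelled Dhh-Cre, both over control.

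Pairs of single genes restate the levels given above and are no further support. They placed the contrast between the replication genes and Plk1 or Ccnb2, and less with Cdk1. Of the 15 differences between a replication gene and a mitotic gene, 12 lay above control on every Sf1-Cre array and 13 on both arrays labelled Dhh-Cre. The share over pairs of all genes was not computed, and the pairs reuse the same genes and the same 2 control arrays. Of all single genes tested, 85.9% did not overlap with control in Sf1-Cre and 91.1% in Dhh-Cre, with 50% and 56% higher. The counts are therefore read only against each other. All 10 with Plk1 or Ccnb2 did so in both Cre groups, against 2 of 5 with Cdk1 in Sf1-Cre and 3 of 5 in the arrays labelled Dhh-Cre. Tk1 minus Plk1, the gene with the largest rise and that with the largest fall in Sf1-Cre, was 0.94, 1.75, 1.76 and 2.50 in Sf1-Cre, 2.71 and 2.42 in the arrays labelled Dhh-Cre, against −2.60 and −2.63 in control. Mcm6 minus Cdk1 was 2.34, 2.52, 3.01 and 2.89 in Sf1-Cre, 2.61 and 2.50 in the arrays labelled Dhh-Cre, against 2.05 and 2.73 in control, and there the groups overlapped. Within the mitotic genes, Cdk1 minus Ccnb2 was −0.98, −0.52, −0.72 and −0.04 in Sf1-Cre, 0.92 and 0.47 in the arrays labelled Dhh-Cre, against −2.37 and −2.38 in control. The kinase and its cyclin partner therefore did not keep 1 ratio over the groups.

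**Figure D3:**
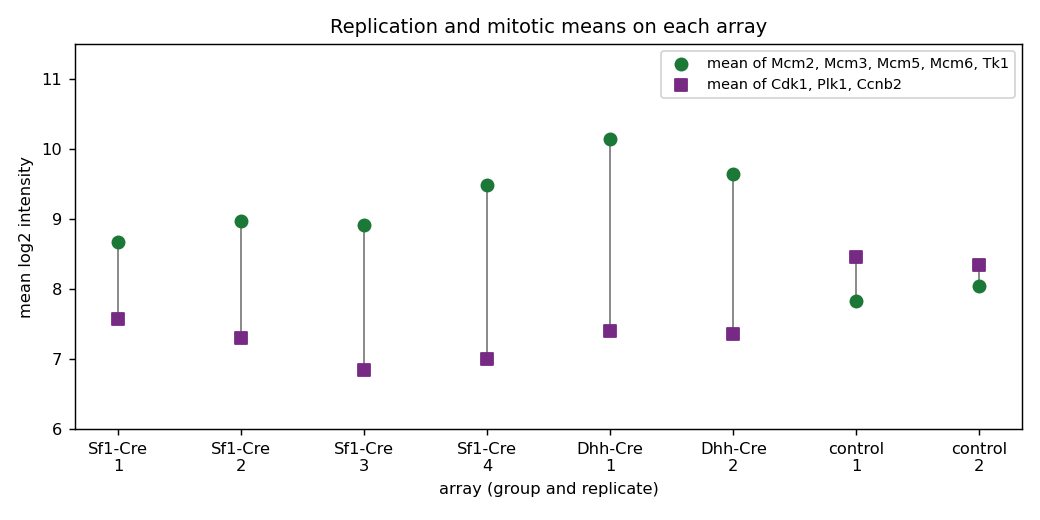
Mean log2 intensity of the 5 replication genes (green circles) and of the 3 mitotic genes (purple squares) on each of the 8 arrays, as deposited, joined by a line whose length is the contrast. The circle lies above the square by 1.11 to 2.47 on the Sf1-Cre arrays and by 2.75 and 2.28 on those labelled Dhh-Cre, and below it on both control arrays (−0.63 and −0.30), and centring an array moves both symbols alike.

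Where a gene had several probe sets, they moved the same way, and some were clearer than the one used for the gene. Of the 18 probe sets, 15 passed the filter, and Mcm3, Mcm5 and Mcm6 each had 1 that was too low to test. In a fit over all 25791 probe sets tested, 77.5% passed for Sf1-Cre over control, 45.9% higher and 31.6% lower, and of the 15 probe sets 7 were higher and 2 lower. For Dhh-Cre over control, where 77.9% of probe sets passed, 49.1% higher and 28.8% lower, 13 of the 15 were higher and 2 lower. The 11 tested probe sets of replication genes ranged over 0.40 to 2.31 in Sf1-Cre and 1.17 to 3.18 in the arrays labelled Dhh-Cre, both over control as deposited, and values under 1.37 and 1.33 turn negative with the shift of housekeeping centring.

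For Mcm6, the probe set 1416251_at passed in Sf1-Cre (0.92 ± 0.17, adjusted p = 0.00141), where 1438852_x_at, the brighter one used for the gene, did not (0.40 ± 0.20, adjusted p = 0.098), and both lie under the centring shift. The suffix x_at marks a set whose probes may also match other transcripts. For Mcm5, 1415945_at differed from control by 1.01 ± 0.17 in Sf1-Cre (adjusted p = 0.000679), against 0.58 ± 0.21 for the x_at set used for the gene (adjusted p = 0.0328). The further Mcm2 probe set, 1448777_at, had a control mean of 3.85, under the floor, and was at least 2.80-fold higher in Sf1-Cre (adjusted p = 0.00352) and at least 4.25-fold higher in the arrays labelled Dhh-Cre (adjusted p = 0.0014). The 4 tested probe sets of Mcm3 differed from control by 0.48 to 0.75 in Sf1-Cre, with adjusted p of 0.0617 to 0.147, and did not pass.

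**Figure D4:**
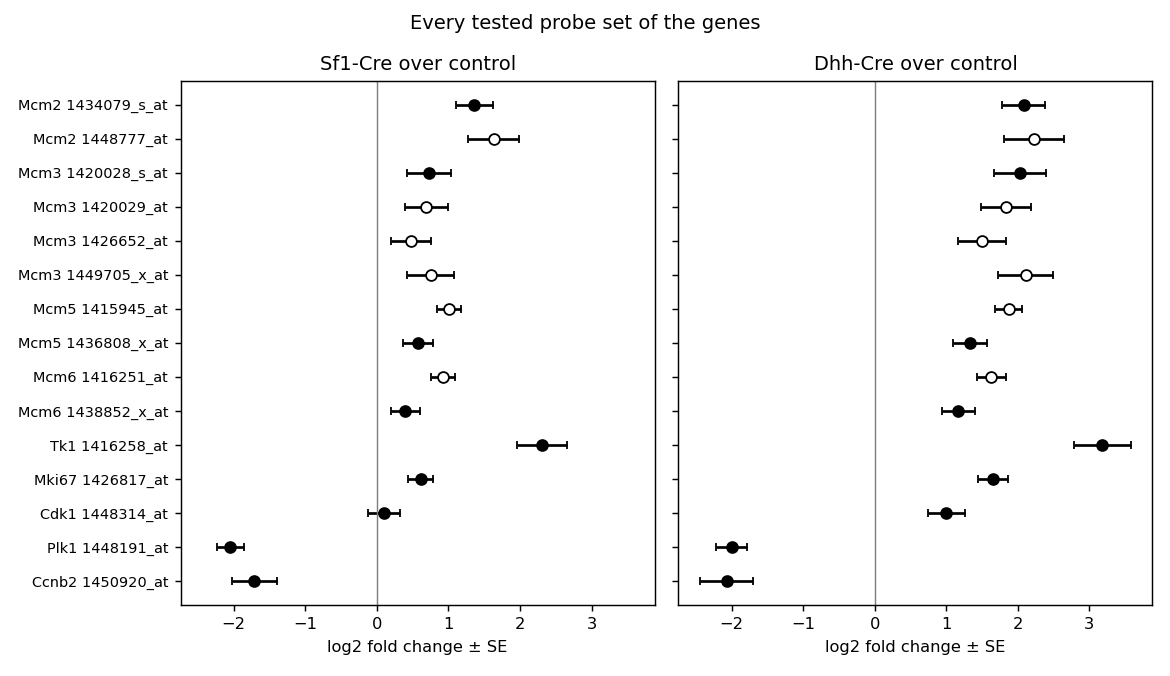
Log2 fold change with ± SE of the 15 tested probe sets of the 9 genes, as deposited, for Sf1-Cre over control and Dhh-Cre (as labelled) over control. Filled points are the probe set used for the gene and open points the others, and all replication probe sets lie above 0 as deposited, between 0.40 and 2.31 in Sf1-Cre, while the centring shift of −1.37 and −1.33 would take those below it under 0.

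Between the Cre groups, Mcm3, Mcm5, Mcm6, Mki67 and Cdk1 were lower in Sf1-Cre than in the arrays labelled Dhh-Cre, and Mcm2, Tk1, Plk1 and Ccnb2 did not pass. Of the 9 genes 5 passed, all lower in Sf1-Cre, where 24.6% of all genes tested passed, 12.9% higher and 11.8% lower. Of the 15 probe sets 10 passed, all lower, where 21.4% of all probe sets passed, 10.2% higher and 11.1% lower. Mcm3 differed by −1.30 ± 0.31 (adjusted p = 0.0221), Mki67 by −1.03 ± 0.18 (adjusted p = 0.00673) and Cdk1 by −0.90 ± 0.23 (adjusted p = 0.0251). Mcm6 differed by −0.77 ± 0.20 (adjusted p = 0.0263) and Mcm5 by −0.75 ± 0.21 (adjusted p = 0.0365). For all 5 the groups did not overlap, beside 47.7% of all genes, 24.5% higher and 23.2% lower, and housekeeping centring, which moved the median of all genes by −0.04 here, kept their direction.

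Mcm2 (−0.72 ± 0.26, 95% interval −1.32 to −0.12, adjusted p = 0.0805) and Tk1 (−0.88 ± 0.35, 95% interval −1.69 to −0.07, adjusted p = 0.106) did not pass, and Sf1-Cre replicate 4 reached into the range of the arrays labelled Dhh-Cre. Without that array both passed, with adjusted p = 0.0229 for Mcm2 and 0.0356 for Tk1. The differences of Plk1 (−0.06 ± 0.19, 95% interval −0.49 to 0.37) and Ccnb2 (0.36 ± 0.32, 95% interval −0.39 to 1.10) did not pass either. The 5 calls rest on few arrays: without the array labelled Dhh-Cre replicate 1, 0 of the 9 passed in limma and 4 had an unadjusted p under 0.05, and 2 passed without any 1 of the array labelled Dhh-Cre replicate 2, Sf1-Cre replicate 2 and Sf1-Cre replicate 3. Without the 3 arrays high in Spink8, 0 passed and 2 had an unadjusted p under 0.05.

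Placed in order, 7 of the 9 genes had their highest mean in the arrays labelled Dhh-Cre, then Sf1-Cre, then control, as deposited, an order held by 30% of all genes tested. With housekeeping centring only Mcm2, Mcm3, Tk1 and Mki67 kept the arrays labelled Dhh-Cre above control, and only Tk1 kept Sf1-Cre above control. Within Sf1-Cre, replicate 4 was highest for 5 of the 9 genes, all of them replication genes, and replicate 1 for the other 4. The mean profile of the 5 replication genes over the 8 arrays was most like those of Syngr2 (Pearson r 0.995), Llgl1 (0.994) and Jmjd4 (0.992), and that of the 3 mitotic genes was most like those of Nfxl1 (0.991), Pkmyt1 (0.990) and Cep83 (0.990). These likenesses are over 8 arrays that fall into the 3 groups, so they describe mainly the group means.

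Other genes of DNA replication moved in both directions in Sf1-Cre. As background for all lists, 79.8% of all genes passed in Sf1-Cre as deposited, 46.6% higher and 33.2% lower. In the arrays labelled Dhh-Cre 79.6% passed, 49.1% higher and 30.5% lower. With housekeeping centring, 2572 of 13802 genes were higher and 8530 lower in Sf1-Cre, and 2761 higher and 7524 lower in Dhh-Cre. Of 43 origin licensing and replication fork genes, 9 rose and 10 fell against control in Sf1-Cre as deposited, with a median of 0.10 (2 rose and 37 fell with housekeeping centring). In the arrays labelled Dhh-Cre 21 rose and 8 fell, with a median of 0.53 (2 rose and 28 fell with housekeeping centring). Pola1, the catalytic subunit of the primase-linked polymerase alpha, rose by 3.03 ± 0.15 in Sf1-Cre (adjusted p = 1.64e-06) and 3.34 ± 0.18 in the arrays labelled Dhh-Cre (adjusted p = 3.56e-06), and by 1.66 and 2.01 with housekeeping centring. Rpa3, the small subunit of the single-strand binding complex, was 2.18 ± 0.24 higher in Sf1-Cre (adjusted p = 7.01e-05; 0.81 with housekeeping centring). Orc1, a subunit of the origin recognition complex, fell in Sf1-Cre (−2.44 ± 0.15, adjusted p = 3.36e-06; −3.81 with housekeeping centring), and so did Pold3, an accessory subunit of polymerase delta (−3.04 ± 0.32, adjusted p = 5.34e-05; −4.41 with housekeeping centring). In the arrays labelled Dhh-Cre, Orc1 differed by −1.55 and Pold3 by −3.06 (−2.88 and −4.39 with housekeeping centring), and both passed.

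Of 12 tested nucleotide synthesis genes, 5 rose in Sf1-Cre and the same 5 in the arrays labelled Dhh-Cre as deposited, while with housekeeping centring 1 rose and 9 fell in Sf1-Cre and 3 rose and 7 fell in the arrays labelled Dhh-Cre. Atic, of purine synthesis, was 2.53 ± 0.19 higher in Sf1-Cre (adjusted p = 9.48e-06) and 1.16 higher with housekeeping centring, which passed. Gart, also of purine synthesis, and Cad, which starts pyrimidine synthesis, were higher by 1.61 ± 0.19 and 1.39 ± 0.21 as deposited and at 0.24 and 0.02 with housekeeping centring, where neither passed. Dck, which phosphorylates deoxycytidine, was 0.80 ± 0.18 higher as deposited (adjusted p = 0.00324) but lower with housekeeping centring (−0.57, adjusted p = 0.0149).

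Genes of mitosis fell more often than they rose in Sf1-Cre, where 33.2% of all genes tested fell and 46.6% rose as deposited. In the arrays labelled Dhh-Cre these shares were 30.5% and 49.1%. Of 20 tested mitotic kinases, cyclins and checkpoint genes, 4 rose and 13 fell in Sf1-Cre as deposited, with a median of −0.82 (1 rose and 18 fell with housekeeping centring), and 5 rose and 8 fell in the arrays labelled Dhh-Cre, with a median of −0.24 (1 rose and 16 fell). Mastl, the Greatwall kinase that keeps mitotic phosphorylation in place, had the largest fall of those named, by −4.06 ± 0.14 in Sf1-Cre (adjusted p = 4.84e-07) and −3.12 ± 0.16 in the arrays labelled Dhh-Cre (adjusted p = 3.32e-06), with −5.43 and −4.45 under housekeeping centring. Foxm1, a transcription factor of G2 and mitosis genes, differed by −2.55 ± 0.20 in Sf1-Cre (adjusted p = 1.12e-05) and −1.95 ± 0.23 in the arrays labelled Dhh-Cre (adjusted p = 0.000101), with −3.92 and −3.28 under housekeeping centring. The phosphatases that switch on CDKs split: Cdc25a fell (−1.53 ± 0.19, adjusted p = 0.00014; −2.90 with housekeeping centring) and Cdc25b rose (2.15 ± 0.22, adjusted p = 4.95e-05; 0.78 with housekeeping centring, which passed) in Sf1-Cre.

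Of 32 kinetochore, condensin and cytokinesis genes, 4 rose and 16 fell in Sf1-Cre, with a median of −0.63 (29 fell with housekeeping centring), and 7 rose and 10 fell in the arrays labelled Dhh-Cre, with a median of 0.07 (2 rose and 24 fell). Over all genes, 46.6% rose and 33.2% fell in Sf1-Cre as deposited, and 49.1% and 30.5% in the arrays labelled Dhh-Cre. Kif20b, a kinesin of cytokinesis, differed by −2.47 ± 0.24 in Sf1-Cre (adjusted p = 3.79e-05), and Kif18a, a kinesin of chromosome alignment, by −2.80 ± 0.44 (adjusted p = 0.000578), with −3.84 and −4.18 under housekeeping centring. Cenpa, the histone of centromeres, was higher by 1.61 ± 0.20 as deposited (adjusted p = 0.000165) and 0.24 with housekeeping centring, and Kif4, a chromosome kinesin, by 1.19 ± 0.19 as deposited (adjusted p = 0.000583) and −0.18 with housekeeping centring. The anaphase-promoting complex, the ubiquitin ligase that ends mitosis, had 8 of 16 listed genes higher and 6 lower in Sf1-Cre as deposited (1 and 10 with housekeeping centring). Its subunits Anapc7 (2.44 ± 0.21), Anapc1 (1.48 ± 0.14) and Anapc4 (1.24 ± 0.13) rose as deposited, with 1.07, 0.11 and −0.13 under housekeeping centring, and its activator Fzr1 fell (−2.75 ± 0.20, adjusted p = 8.99e-06; −4.13 with housekeeping centring).

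**Figure D5:**
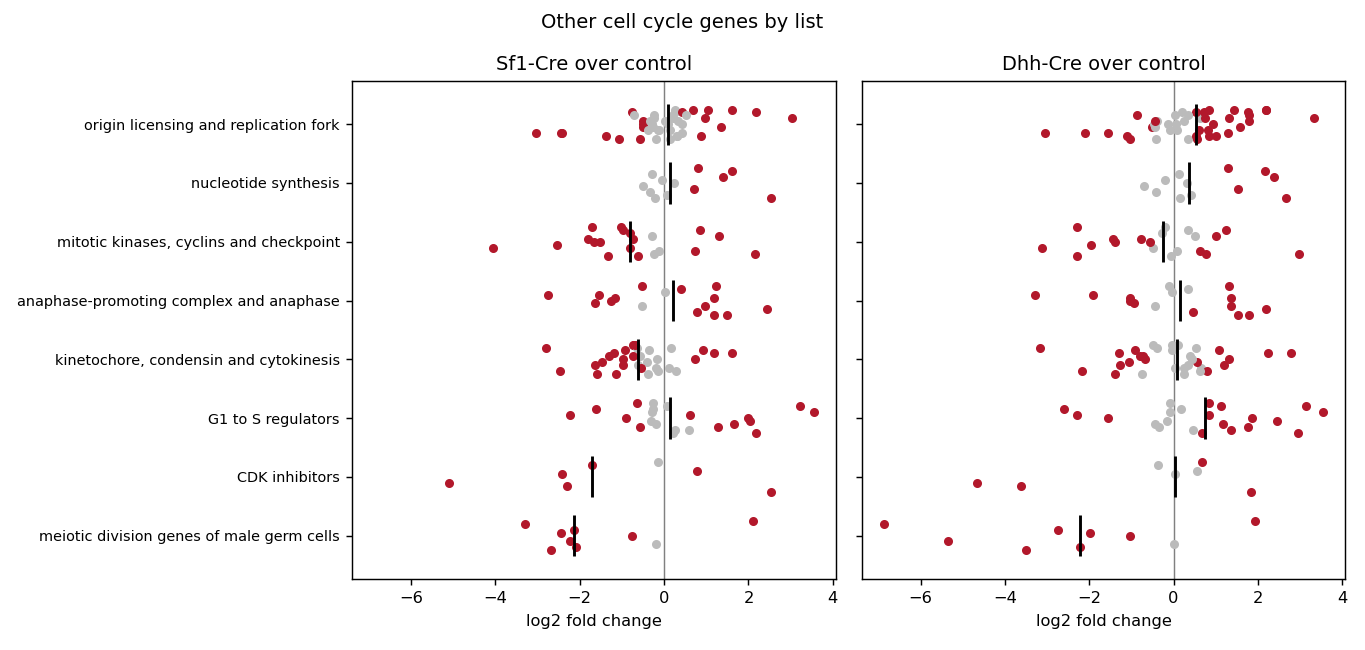
Log2 fold change, as deposited, of every tested gene in the 8 lists of cell cycle genes for Sf1-Cre over control (left) and Dhh-Cre, as labelled, over control (right), with points spread vertically within a list only for legibility. Red points passed, grey points did not, and the black bar is the median of the list, which for origin licensing and fork genes is 0.10 in Sf1-Cre and 0.53 in Dhh-Cre (−1.27 and −0.80 with housekeeping centring).

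Regulators of the step into S phase and CDK inhibitors moved beyond the centring shift in several cases. Cdk4, the kinase of D-type cyclins, rose by 3.23 ± 0.18 in Sf1-Cre (adjusted p = 2.7e-06) and its partner Ccnd2 by 3.55 ± 0.27 (adjusted p = 1.14e-05), with 1.86 and 2.18 under housekeeping centring. In the arrays labelled Dhh-Cre the same genes were higher by 3.14 and 3.54 (1.81 and 2.21 with housekeeping centring), and both passed. Cdk6 was 2.00 ± 0.19 higher in Sf1-Cre (0.63 with housekeeping centring, which passed) and E2f6, a repressor of the E2F family, 1.65 ± 0.15 higher (0.28 with housekeeping centring, which did not). Of the 22 tested G1 to S regulators, 8 rose and 5 fell in Sf1-Cre and 12 rose and 3 fell in the arrays labelled Dhh-Cre as deposited, against 5 and 15, and 4 and 12, with housekeeping centring. The shares over all genes were 46.6% higher and 33.2% lower in Sf1-Cre, and 49.1% and 30.5% in Dhh-Cre, as deposited.

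Of 7 CDK inhibitors, 2 rose and 4 fell in Sf1-Cre and 2 rose and 2 fell in the arrays labelled Dhh-Cre as deposited, while with housekeeping centring 5 fell in Sf1-Cre and 6 in the arrays labelled Dhh-Cre. Among all genes tested, 46.6% rose and 33.2% fell in Sf1-Cre, and 49.1% and 30.5% in Dhh-Cre, as deposited. Cdkn1c, the inhibitor p57, was at least 29.2-fold lower in Sf1-Cre, whose mean of 3.77 lay under the floor, than in control at 8.87 (adjusted p = 4.84e-07), and its fitted difference moved by the centring shift to −6.47. Cdkn1a, the inhibitor p21, was higher by 2.54 ± 0.23 in Sf1-Cre (adjusted p = 2.72e-05; 1.17 with housekeeping centring). Cdkn2b, the inhibitor p15, averaged 5.43 ± 0.26 in Sf1-Cre, 7.90 ± 0.22 in the arrays labelled Dhh-Cre and 7.86 ± 0.28 in control. As deposited it was lower in Sf1-Cre than in control (−2.43 ± 0.21, adjusted p = 2.15e-05) and did not pass between Dhh-Cre and control (0.04 ± 0.25, adjusted p = 0.891). With housekeeping centring it was lower than control in both, by −3.80 in Sf1-Cre and by −1.29 in the arrays labelled Dhh-Cre (adjusted p = 0.00317). It differed by −2.47 ± 0.21 between Sf1-Cre and Dhh-Cre (adjusted p = 0.000407). Cdkn2c, the inhibitor p18, averaged 7.33 in Sf1-Cre, 6.00 in the arrays labelled Dhh-Cre and 9.62 in control, and passed in all 3 comparisons. Its difference from control was −2.30 in Sf1-Cre and −3.62 in the arrays labelled Dhh-Cre, with −3.67 and −4.95 under housekeeping centring.

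Of 9 genes of the male meiotic divisions, 1 rose and 7 fell in Sf1-Cre and in the arrays labelled Dhh-Cre, with medians of −2.13 and −2.22 (1 rose and 8 fell in each with housekeeping centring). All genes tested fell in 33.2% in Sf1-Cre and 30.5% in Dhh-Cre and rose in 46.6% and 49.1%, as deposited. Cdc25c, a phosphatase that activates Cdk1, differed by −2.44 ± 0.26 in Sf1-Cre (adjusted p = 5.61e-05), and Aurkc, the aurora kinase of meiosis, by −2.68 ± 0.43 (adjusted p = 0.000618), with −3.81 and −4.05 under housekeeping centring. Haspin, a histone kinase abundant in testis, averaged log2 9.15 in Sf1-Cre, 5.59 in the arrays labelled Dhh-Cre and 12.45 in control, and fell in Sf1-Cre (−3.31 ± 0.43; −4.68 with housekeeping centring) and in Dhh-Cre as labelled (−6.87 ± 0.49; −8.20 with housekeeping centring). It differed by 3.56 ± 0.43 between Sf1-Cre and Dhh-Cre (adjusted p = 0.00153). Ccnb3, a B-type cyclin of early meiotic prophase, was at least 1.88-fold higher in Sf1-Cre, as its control mean of 2.81 lay under the floor (adjusted p = 5.86e-05; 0.73 on the log2 scale with housekeeping centring).

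Markers of germ cells and of most somatic cell types also differed between the Cre groups and control. The summed intensity of 11 spermatid markers was 1340 to 6240 in Sf1-Cre, 1330 and 12700 in the arrays labelled Dhh-Cre, against 77600 and 70700 in control, and 11 of 11 fell in Sf1-Cre and 10 of 11 in the arrays labelled Dhh-Cre. Of 9 tested spermatocyte markers 0 rose and 5 fell in Sf1-Cre, with no further gene at an unadjusted p under 0.05, and 1 rose and 4 fell in the arrays labelled Dhh-Cre. Their sum was 11800, 9300, 6470 and 5260 in Sf1-Cre replicates 1 to 4, 8560 and 10900 in the arrays labelled Dhh-Cre, against 15600 and 16900 in control. Sf1-Cre replicate 1 was the highest array of its group and replicate 4 the lowest for Ccnb2 and Plk1. The same held for both the spermatocyte sum and the spermatid sum. The summed spermatogonial markers were 1770 to 2100 in Sf1-Cre, 4850 and 4070 in the arrays labelled Dhh-Cre, against 1540 and 1280 in control. The Sertoli, peritubular and endothelial sums below had the same order of groups, as did the means of Mki67 and the Mcm genes as deposited. By group means, 30% of all genes tested held this order. Of the single spermatogonial markers, Stra8 held it, while Uchl1, Sall4 and Lin28a were lower in Sf1-Cre than in control. Of 8 tested spermatogonial markers 3 rose and 4 fell in Sf1-Cre, and 4 rose and 1 fell in the arrays labelled Dhh-Cre. All 9 macrophage markers rose in both Cre groups, and their sum was 29000 to 33300 in Sf1-Cre, 23300 and 23600 in the arrays labelled Dhh-Cre, against 4410 and 4760 in control. Of the somatic lists, 4 of 4 tested fibroblast, 4 of 4 Leydig, 5 of 5 endothelial and 4 of 5 peritubular markers rose in Sf1-Cre. In the arrays labelled Dhh-Cre, 4 of 4 fibroblast, 3 of 4 Leydig, 5 of 5 endothelial and 5 of 5 peritubular markers rose. The fibroblast sum was 10300 to 11300 in Sf1-Cre, 10500 and 13000 in the arrays labelled Dhh-Cre, against 1410 and 1500 in control. The Leydig sum was 18600 to 26700 in Sf1-Cre, 17800 and 21400 in the arrays labelled Dhh-Cre, against 5140 and 5710 in control. The peritubular sum was 5980 to 6840 in Sf1-Cre, 8960 and 10400 in the arrays labelled Dhh-Cre, against 1820 and 2290 in control. The endothelial sum was 634 to 919 in Sf1-Cre, 1160 and 1210 in the arrays labelled Dhh-Cre, against 168 and 172 in control. All 5 granulosa markers with a value rose in both Cre groups, with a sum of 3180 to 5770 in Sf1-Cre, 916 and 1170 in the arrays labelled Dhh-Cre, against 29.8 and 32.3 in control, where all 5 lay under the floor. The summed Sertoli markers were 25400 to 27600 in Sf1-Cre, 41600 and 43500 in the arrays labelled Dhh-Cre, against 23400 and 23800 in control. Of 11 Sertoli markers 6 rose and 3 fell in Sf1-Cre and 9 rose in the arrays labelled Dhh-Cre. These marker counts are as deposited and were not recounted with housekeeping centring. Beside them, 46.6% of all genes rose and 33.2% fell in Sf1-Cre, and 49.1% and 30.5% in the arrays labelled Dhh-Cre. The endothelial markers Pecam1 and Cdh5 and the fibroblast marker Lum lay under the floor on every array and were not tested. The part of these cell types in the levels of the 9 genes was not tested.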

How the data were processed

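Total RNA of whole testes was extracted with TRIzol and labelled with biotin, per the labels' protocols. The deposited values are array intensity on a linear scale, made by the authors with GCRMA, per the submitters' processing notes. For the GCRMA version, the sources used here give none. For this report log2 of the intensity was taken. Probe sets were named through the platform annotation, updated to GRCm38.p6 by Entrez identifier (34754 matched), and 34958 carried 1 symbol, 932 several and 9211 none listed. Each gene was represented by its probe set with the highest mean, and 13802 genes with log2 of at least 4 on at least 2 arrays were tested.

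Limma 3.58.1 (R 4.3.3, with the data.table package, version 1.17.8) fitted 3 group means to 8 arrays (5 residual degrees of freedom, 2.73 prior), with 2-sided p-values adjusted by Benjamini and Hochberg. Folds against a mean under log2 4 are bounds against that floor. The number of arrays limits the precision. Plots and promoter searches used pandas 2.3.3, matplotlib 3.10.9 and Python 3.11.15. The 9 genes and the gene lists were chosen with earlier results of these data known. In each pathway list up to 4 passing genes were named by the smallest p for Sf1-Cre over control, with Ccnb1 not analysed here. Replicate numbers are shared by the groups, but deviations from the group means of same-numbered arrays correlated by −0.194 to 0.38, so they were not taken as pairs. The p-values measure the spread between these samples. The alternatives were centring on housekeeping genes, quantile normalization, the filter, the floor, the moderation, weights, the groups in the fit, the probe sets of a gene, the replicate block and leaving out arrays.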

Additional observations from a re-analysis of the deposited data

Results flagged for a closer look

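For 5 genes the effects of the Cre drivers differed by the test of the difference itself, Sf1-Cre against Dhh-Cre in the same limma fit. Sf1-Cre was lower for Mcm3 (−1.30), Mki67 (−1.03), Cdk1 (−0.90), Mcm6 (−0.77) and Mcm5 (−0.75) on the log2 scale, in 4 of 4 Sf1-Cre arrays against both arrays labelled Dhh-Cre. The Dhh-Cre side of each difference rests on 2 arrays in which whole-testis Dmrt1 was higher than in control, a direction opposite to a loss. Dixon's test flagged no Sf1-Cre array for any of the 9 genes. The highest ratio of gap to range, 0.753 for Cdk1, lay under the 95% critical value. With 4 values only a gap that fills most of the range exceeds that value, so the test cannot exclude an outlying Sf1-Cre array. It also cannot examine the 2 arrays labelled Dhh-Cre, on which the 5 differences equally depend.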

How the results depend on the processing

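Each of the 9 genes was refitted under 19 alternatives for each comparison. Tk1, Plk1 and Ccnb2 passed in the same direction under all 19 in both comparisons with control, while Plk1 and Ccnb2 moved over −3.42 to −1.92 and −3.08 to −1.31 in Sf1-Cre. Housekeeping centring turned the direction of 6 genes for Sf1-Cre over control, with Mcm2 at −0.01, Mcm3 at −0.64, Mcm5 at −0.79, Mcm6 at −0.97, Mki67 at −0.76 and Cdk1 at −1.27, and of 3 genes for Dhh-Cre over control, with Mcm5 at −0.00014, Mcm6 at −0.16 and Cdk1 at −0.33. With it 3 genes rather than 9 passed for Dhh-Cre over control. Array weights put Cdk1 at −0.03 in Sf1-Cre over control. For Sf1-Cre over Dhh-Cre, where 5 genes passed, 2 passed with the replicate block, 0 without the 3 arrays in which Spink8 reached log2 10 (chosen after seeing the data; 2 at an unadjusted p under 0.05), and 0 to 7 with 1 array left out. In that comparison Plk1 turned to 0.08 with the replicate block, 0.18 without the Spink8 arrays, and over −0.32 to 0.21 with 1 array left out, and Ccnb2 turned to −0.02 without the Spink8 arrays. The replicate block left 5 genes passing for Sf1-Cre over control, where Mcm5 was lost, and 9 for Dhh-Cre over control. With 1 array left out, 5 to 7 genes passed for Sf1-Cre over control and 9 for Dhh-Cre over control. Over all genes, 3402 passed for Sf1-Cre over Dhh-Cre, 714 without the Spink8 arrays, 1139 without the array labelled Dhh-Cre replicate 1 and 2066 without the array labelled Dhh-Cre replicate 2. The contrast between replication and mitosis moved by less than its spread with quantile normalization, values floored at log2 4, the mean of all probe sets, 1 array left out or the Spink8 arrays left out, and by more with Cdk1 left out of the mitotic mean, to 2.96 for Sf1-Cre and 3.99 for Dhh-Cre, both over control. The cause of these changes was not tested. Tk1 in control and Plk1 in the Cre groups lie near the floor, where the arrays resolve levels least. Other named genes also have group means near it. Among them are Cenpa (4.04), Rpa3 (4.32), Kif4 (4.65) and Pola1 (4.89) in control and Orc1 (4.56) in Sf1-Cre.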
